A study of Rattus norvegicus with 33 samples.

Results

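The mammary glands of adult virgin rats (called nulliparous here, postnatal day 181, n = 5 arrays) were compared with those of pubertal rats (day 63, n = 5 arrays), which makes 10 of the 33 arrays of the series. Both groups were chosen by their stage label, and the comparison was described across 10986 tested genes of 18166 that had a probe set with 1 gene symbol. All rats were female Sprague-Dawley, an outbred laboratory strain, and were control animals of a larger chemical exposure study. They received only the vehicle, olive oil, into the stomach, 0.5 mL until day 63 and 1 mL after that until day 180, so the adults had been dosed for longer and with more oil than the pubertal rats. They were weaned at day 28, and total RNA came from the fifth caudal glands of both sides, pulverized. Animals of 1 stage were killed on a single day, at random with respect to the estrous cycle. Neither the time of day nor each animal's cycle stage is given in the sources used here, and age and collection day cannot be told apart.

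The virgin rat gland at puberty is a branching tree of epithelial ducts that grows into a fat pad under the control of estrogen, growth hormone and progesterone. Its ducts have an inner luminal layer and an outer contractile basal layer, and fibroblasts around them lay down collagen and elastic fibres. In an adult virgin the tree has filled the fat pad and turns over with each estrous cycle without forming the full secretory lobules of pregnancy.

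The labels divide the arrays into batches. Batch 1 held 3 arrays of each group and is the only batch that holds both; pubertal arrays 4 and 5 were in batch 2, and nulliparous arrays 4 and 5 were in batch 3. Batch 3 used another RNA extraction kit, which the labels tie to glands with more fat, and otherwise held only 2 parous arrays, so its arrays bear on the difference only through the batch term. Where all 10 arrays are set side by side below, the deposited values also carry batch differences. Their overlap or separation across batches is a description and not added support. Each array was taken as 1 animal, and the number of arrays limits the precision. Values are deposited log2 expression values, in which a difference of 1 is 2-fold. Differences are nulliparous minus pubertal from a limma model with batch terms, given with the SE and the Benjamini-Hochberg adjusted p over all genes. A gene was called, and is said to have risen or fallen, at an adjusted p under 0.05. The adjusted p in batch 1 alone stands beside that of each called gene named below, except Zim1. Where a call was lost when 1 of the 10 arrays was left out, the text names the arrays whose removal ended the call, or, where those are more than 5, the arrays whose removal kept it, with the highest adjusted p that resulted.

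Between the groups, 206 genes rose (1.88% of those tested) and 263 fell (2.39%) in the adults, and 1955 had an unadjusted p under 0.05. In batch 1 alone, 3 against 3, limma called 12 genes higher (0.109%) and 17 lower (0.155%), with 2089 at an unadjusted p under 0.05, and 26 of these 29 were also called with all arrays. When the other stages of batch 1 were added to estimate the spread (18 arrays, chosen after seeing the data), 127 were higher (1.16%) and 123 lower (1.12%). All 469 genes called with all arrays had the same sign in batch 1 alone. The fit with all arrays includes those of batch 1, the only batch with both groups, so this agreement is not independent support. The 3 nulliparous arrays of batch 1 lay above its 3 pubertal arrays at 1438 genes (13.1%) and below them at 1565 (14.2%), of which 196 and 248 were called. The median difference over all genes was -0.02. Of 79 called genes named in the text, 12 were also called in batch 1 alone.

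In 24 of those 79 genes at least 1 nulliparous array of batch 3 lay among the pubertal arrays, or past them against the direction called in the deposited values. They were Per2, Pappa, LOC691946, Atp13a4, Slc28a3, Phlda1, Retn, Rab17, Cthrc1, Per3, Dbp, Tef, Hspa5, Egr2, Irf7, Ifi27, Isg15, Ifi44, Pigr, Lpo, Stat5a, Elovl6, Srebf1 and Lep. Of the 79, 10 were above the floor of the filter on dim genes (a log2 value of 7.645) in no pubertal array, Cyp2b1, Pappa, Ctxn3, LOC691946, Atp13a4, Klk1c9, Cry1, Hspa4l, Hdc and Aldh3a1, and 6 in no nulliparous array, Klk1c9, Zim1, Rad54b, Pcsk2, Rsad2 and Hdc. These passed the filter through arrays of the other group or of other stages, and no fold is given for them.

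Several arrays stood apart in cell content, as the plot of marker lists shows. The mean log2 value of 15 T cell marker genes reached 9.64 in nulliparous array 3, while the other arrays of that group lay at 7.54 to 7.81, and that of 11 B cell genes was 10.0 against 6.77 to 6.95. Skeletal muscle genes averaged 10.1 in nulliparous array 5 against 6.72 to 7.64. Pubertal array 5 had the highest interferon mean of its group (9.30 against 8.49 to 8.71), and pubertal arrays 1 and 5 had the lowest means of 28 cell division genes (7.16 and 7.38 against 8.38 to 8.58). Without nulliparous arrays 3 and 5, 124 genes were called higher and 65 lower. Leaving out nulliparous array 3 alone gave 150 and 112, nulliparous array 2 gave 99 and 141, pubertal array 2 gave 138 and 155, and pubertal array 3 gave 102 and 102. Atp13a4, Col1a2, Rab17, Sdf2l1 and Stip1 were called in all 10 fits that leave out 1 array, but not without both nulliparous arrays 3 and 5, where their adjusted p-values ran from 0.051 to 0.0544.

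**Figure D1:**
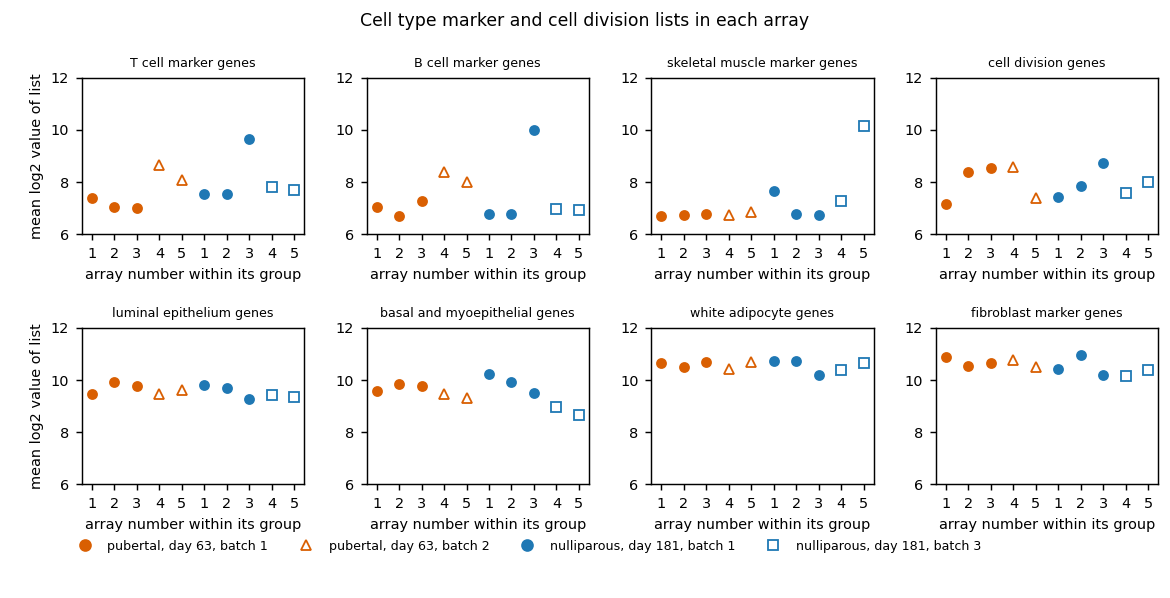
Mean log2 value (vertical axis) of the tested genes of 8 lists in each of the 10 arrays, numbered within its group; filled circles are batch 1, triangles batch 2 and squares batch 3. Nulliparous array 3 stands at 9.64 for T cell and 10.0 for B cell genes and nulliparous array 5 at 10.1 for muscle genes, while luminal means lie from 9.29 to 9.91 over the 10 arrays.

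The glands carried the markers of their tissue in both groups. Krt8, a luminal keratin, ranged from 9.11 to 9.85 in pubertal and from 8.87 to 10.63 in nulliparous arrays. Epcam, an adhesion protein of epithelium, ranged from 10.71 to 11.30 and from 9.69 to 11.50. Krt14, a basal keratin, ranged from 9.53 to 9.82 and from 9.67 to 11.18. Adipoq, the adipocyte hormone adiponectin, ranged from 12.49 to 12.84 and from 12.08 to 13.01. None of these 4 genes passed the test, with adjusted p-values of 0.484, 0.578, 0.835 and 0.929. Of the 10 fibroblast, 19 luminal, 10 basal, 16 endothelial, 15 macrophage and 6 Schwann cell genes tested, 0 were called in either direction, and so it was for the 2 brown adipocyte genes and the 1 red blood cell gene tested. With 1.88% of all genes called higher and 2.39% lower, 0 calls in lists this short is near the share of all genes. In whole tissue, fewer cells of a type and less RNA per cell cannot be told apart.

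The largest changes among genes whose batch 1 arrays did not overlap included genes of fat handling, the clock and matrix assembly. Fabp3, which encodes a fatty acid binding protein that is abundant in heart and in secretory mammary cells, stood at 7.86, 8.69 and 8.87 in the pubertal arrays of batch 1 and at 10.07, 11.52 and 11.34 in the nulliparous ones. The pubertal arrays of batch 2 were at 8.29 and 7.78 and the nulliparous arrays of batch 3 at 11.42 and 11.72, so the groups did not overlap in any array. Fabp3 rose 5.91-fold (2.56 ± 0.39, adjusted p = 2.39e-04; batch 1 alone 2.50 ± 0.43, adjusted p = 0.0753).

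Cyp2b1, a cytochrome P450 enzyme of drug and steroid metabolism, was at 3.49, 3.93 and 3.68 in pubertal and 6.31, 5.65 and 5.99 in nulliparous arrays of batch 1, with 3.86 and 3.65 in batch 2 and 8.38 and 7.86 in batch 3. All 6 arrays of batch 1 lie below the floor, and among the 10 arrays only those of batch 3 pass it. The fitted difference was 2.53 ± 0.47 (adjusted p = 0.00191), with 2.28 ± 0.30, adjusted p = 0.0532 in batch 1 alone. Pappa, a secreted protease that frees insulin-like growth factors from a binding protein, was at 7.50, 6.89 and 6.87 in pubertal and 9.19, 8.85 and 8.54 in nulliparous arrays of batch 1. It rose by 1.72 ± 0.18 (adjusted p = 5.60e-07) and was also called in batch 1 alone (1.77 ± 0.22, adjusted p = 0.0461). Ctxn3, of the cortexin family of small membrane proteins, was at 6.95, 6.61 and 6.59 in pubertal and 8.45, 8.59 and 7.61 in nulliparous arrays of batch 1 and rose by 1.61 ± 0.17 (adjusted p = 5.14e-07; batch 1 alone 1.5 ± 0.26, adjusted p = 0.0768).

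Other large rises included secreted proteins and transporters. Spink8, a member of a family of serine protease inhibitors, rose by 1.44 ± 0.24 (adjusted p = 5.54e-04 and 0.097 in batch 1 alone), Cytl1, a small cytokine-like secreted protein, by 1.36 ± 0.25 (adjusted p = 0.00186 and 0.0837 in batch 1 alone) and Phlda1, a pleckstrin homology-like protein, by 1.42 ± 0.24 (adjusted p = 6.08e-04 and 0.101 in batch 1 alone). Slc28a3, a nucleoside transporter, rose by 1.43 ± 0.36 (adjusted p = 0.02 and 0.239 in batch 1 alone; lost without nulliparous array 2 or 3 or pubertal array 1, up to 0.0797), and Atp13a4, a cation-transporting ATPase, by 1.5 ± 0.33 (adjusted p = 0.0086 and 0.0768 in batch 1 alone). Klk1c9, of the kallikrein protease family, was below the floor in all 10 arrays, at 4.22 to 4.88 in pubertal and 5.23 to 7.31 in nulliparous ones, with a fitted difference of 1.46 ± 0.39 (adjusted p = 0.029 and 0.115 in batch 1 alone; lost without nulliparous array 1 or 2 or pubertal array 1 or 2 or 3, up to 0.115). LOC500161, LOC500181 and LOC691946, which the annotation names only by locus, had their highest nulliparous value in array 3 (10.92, 9.23 and 8.59), the array with the high B and T cell means. They rose by 1.72 ± 0.48 (adjusted p = 0.0361 and 0.139 in batch 1 alone; lost without nulliparous array 3 or 4 or pubertal array 1 or 2 or 3, up to 0.19), 1.70 ± 0.46 (adjusted p = 0.0292 and 0.158 in batch 1 alone; lost without nulliparous array 3 or pubertal array 2 or 3, up to 0.171) and 1.58 ± 0.45 (adjusted p = 0.0384 and 0.125 in batch 1 alone; kept with 1 array left out only without nulliparous array 1 or 5 or pubertal array 4, otherwise up to 0.204). The part of those cells in these values was not tested.

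**Figure D2:**
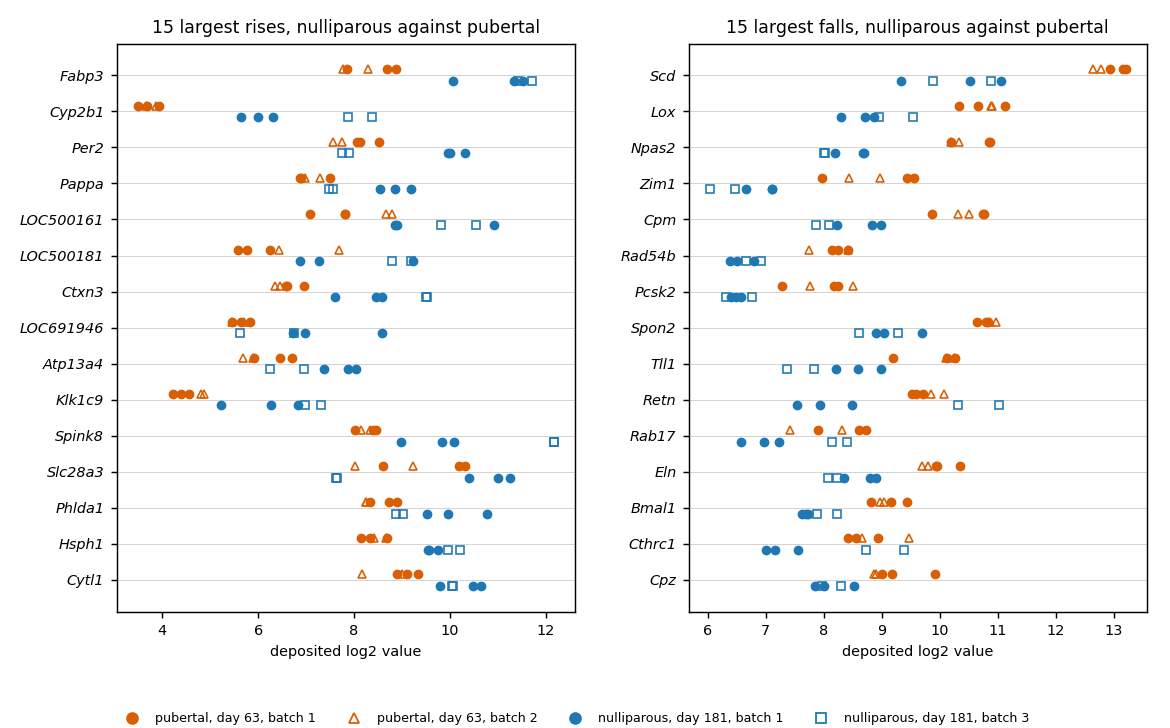
Deposited log2 value (horizontal axis) of the called genes without overlap in batch 1 that had the 15 greatest rises and the 15 greatest falls; each point is 1 array, and filled circles are batch 1. In batch 1 the nulliparous arrays lie on 1 side of the pubertal arrays at all 30 genes, by the rule that chose them, while at 9 genes, Per2, Retn and Cthrc1 among them, at least 1 batch 3 array lies among or past the pubertal arrays.

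Among the falls, Zim1, an imprinted zinc finger gene, was at 7.97, 9.56 and 9.44 in pubertal and 6.66, 7.12 and 7.11 in nulliparous arrays of batch 1 and fell by 1.92 ± 0.34 (adjusted p = 0.00117). Rad54b, a gene of recombination repair, was at 8.42, 8.14 and 8.25 in pubertal and 6.38, 6.50 and 6.80 in nulliparous arrays of batch 1 and fell by 1.67 ± 0.24 (adjusted p = 1.38e-04), a call also made in batch 1 alone (-1.71 ± 0.14, adjusted p = 0.0171). In the cell division list 0 of 28 genes were called, with Mki67 at -0.12 ± 0.62 (adjusted p = 0.945) and Top2a at -0.24 ± 0.61 (adjusted p = 0.885). Carboxypeptidase M, encoded by Cpm, fell by 1.79 ± 0.26 (adjusted p = 1.79e-04 and 0.0732 in batch 1 alone), and Pcsk2, a protease that processes prohormones, fell by 1.53 ± 0.22 (adjusted p = 1.38e-04 and 0.0768 in batch 1 alone). Rab17, a small GTPase of vesicle traffic in epithelia, fell by 1.38 ± 0.29 (adjusted p = 0.00568 and 0.0766 in batch 1 alone).

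Many collagen genes fell in the adults. Of 16 collagen chain genes tested, 8 fell, 0 rose and 8 did not pass, where 2.39% of all genes fell, with a median difference of -0.56, and 14 of the 16 lay lower without overlap in batch 1, where 14.2% of all genes did. Chains of fibrillar collagens were among those that fell. Col1a1, a chain of type I collagen, was at 13.31, 13.13 and 13.28 in pubertal and 12.09, 12.70 and 12.32 in nulliparous arrays of batch 1, and fell by 0.87 ± 0.20 (adjusted p = 0.00949 and 0.0768 in batch 1 alone). Its partner chain Col1a2 was at 12.90, 12.76 and 12.90 in pubertal and 11.68, 12.40 and 11.61 in nulliparous arrays of batch 1 and fell by 0.94 ± 0.21 (adjusted p = 0.00934 and 0.0963 in batch 1 alone). Type III collagen, Col3a1, was at 12.89, 12.74 and 12.96 in pubertal and 11.70, 12.19 and 11.77 in nulliparous arrays of batch 1 and fell by 0.98 ± 0.18 (adjusted p = 0.00235 and 0.0669 in batch 1 alone). In each of the 3 genes the pubertal arrays lay within 0.25 of each other in batch 1 and the nulliparous arrays spread further. Col5a2, of a minor fibrillar collagen, fell by 0.77 ± 0.18 (adjusted p = 0.0139 and 0.0707 in batch 1 alone; lost without nulliparous array 3 or pubertal array 3, up to 0.0707). Col4a1, of basement membranes, did not pass (-0.46 ± 0.15, adjusted p = 0.0771). Within batch 1 alone 0 of 16 collagens were called, where 0.155% of all genes were called lower, with a median of -0.66. Without nulliparous arrays 3 and 5 there were 2, where 65 of 10986 genes were called lower, with a median of -0.49. Leaving out 1 array gave 4 (without nulliparous array 3) to 8, where 102 to 245 of all genes were called lower. The mean of the collagen list ran from 10.1 to 10.4 in pubertal arrays, from 9.42 to 9.90 in nulliparous arrays of batch 1 and from 8.41 to 8.51 in those of batch 3. That of the 10 fibroblast markers ran from 10.5 to 10.9, from 10.2 to 11.0 and from 10.2 to 10.4, and its part in the result was not tested.

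Lox, the enzyme that cross-links collagen and elastin, fell most among the matrix genes named here. It stood at 11.12, 10.33 and 10.66 in pubertal arrays of batch 1, at 10.91 and 10.89 in those of batch 2, at 8.71, 8.87 and 8.30 in nulliparous arrays of batch 1 and at 8.95 and 9.54 in those of batch 3, so that every nulliparous array was below every pubertal one. Lox fell 4.12-fold (-2.04 ± 0.23, adjusted p = 2.12e-06) and was called in batch 1 alone (-2.08 ± 0.23, adjusted p = 0.0393). Of the 17 collagen processing and cross-linking genes, it and Loxl2 (-0.77 ± 0.21, adjusted p = 0.0284 and 0.197 in batch 1 alone; lost without nulliparous array 1 or 3 or pubertal array 1 or 3, up to 0.153) were the 2 that fell, where 2.39% of all genes did. Serpinh1, a collagen chaperone, was at -0.20 ± 0.17 (adjusted p = 0.613) and did not pass. In batch 1, 6 of the 17 genes lay lower and 2 higher without overlap, against 14.2% and 13.1% of all genes.

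Eln, elastin itself, was at 10.35, 9.94 and 9.96 in pubertal and 8.80, 8.90 and 8.34 in nulliparous arrays of batch 1, with 9.69 and 9.79 in batch 2 and 8.23 and 8.07 in batch 3. All nulliparous arrays lay below all pubertal arrays, and Eln fell 2.55-fold (-1.35 ± 0.16, adjusted p = 2.86e-06; batch 1 alone -1.40 ± 0.18, adjusted p = 0.0463). Of 13 elastic fibre genes, Eln and Fbn1, the microfibril protein fibrillin, fell, where 2.39% of all genes did (Fbn1 -0.81 ± 0.23, adjusted p = 0.0392 and 0.155 in batch 1 alone; kept with 1 array left out only without nulliparous array 2 or 5 or pubertal array 5, otherwise up to 0.171). Outside these lists, Tll1, a protease that trims procollagen, fell by 1.42 ± 0.33 (adjusted p = 0.0118 and 0.115 in batch 1 alone; lost without nulliparous array 2, at 0.0521). Cthrc1, a secreted protein with a collagen-like repeat, fell by 1.30 ± 0.26 (adjusted p = 0.00419 and 0.0568 in batch 1 alone). Spon2, a secreted matrix protein, fell by 1.46 ± 0.25 (adjusted p = 6.75e-04 and 0.0493 in batch 1 alone), and Cpz, a secreted carboxypeptidase, by 1.28 ± 0.25 (adjusted p = 0.00281 and 0.101 in batch 1 alone).

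Most other stromal genes did not pass, where 2.39% of all genes fell. Of 16 matricellular and proteoglycan genes, Sparc (-0.31 ± 0.08, adjusted p = 0.0224 and 0.199 in batch 1 alone; lost without nulliparous array 3 or pubertal array 3, up to 0.127), which binds collagen, and Bgn, the proteoglycan biglycan (-0.39 ± 0.11, adjusted p = 0.0468 and 0.0817 in batch 1 alone; kept with 1 array left out only without pubertal array 4, otherwise up to 0.131), fell, and 14 did not pass; without nulliparous arrays 3 and 5, neither passed. Fn1, fibronectin, was at -0.02 ± 0.18 (adjusted p = 0.965). Of 15 matrix proteases and inhibitors 0 passed, with Mmp2 at -0.39 ± 0.17 (adjusted p = 0.195) and Mmp14 at -0.53 ± 0.18 (adjusted p = 0.0966). The fibroblast marker Pdgfra was at -0.24 ± 0.16 (adjusted p = 0.463). Of 6 pericyte genes, 1 fell, the potassium channel subunit Abcc9 (-0.52 ± 0.12, adjusted p = 0.0148 and 0.109 in batch 1 alone; lost without nulliparous array 2 or pubertal array 1, up to 0.055).

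**Figure D3:**
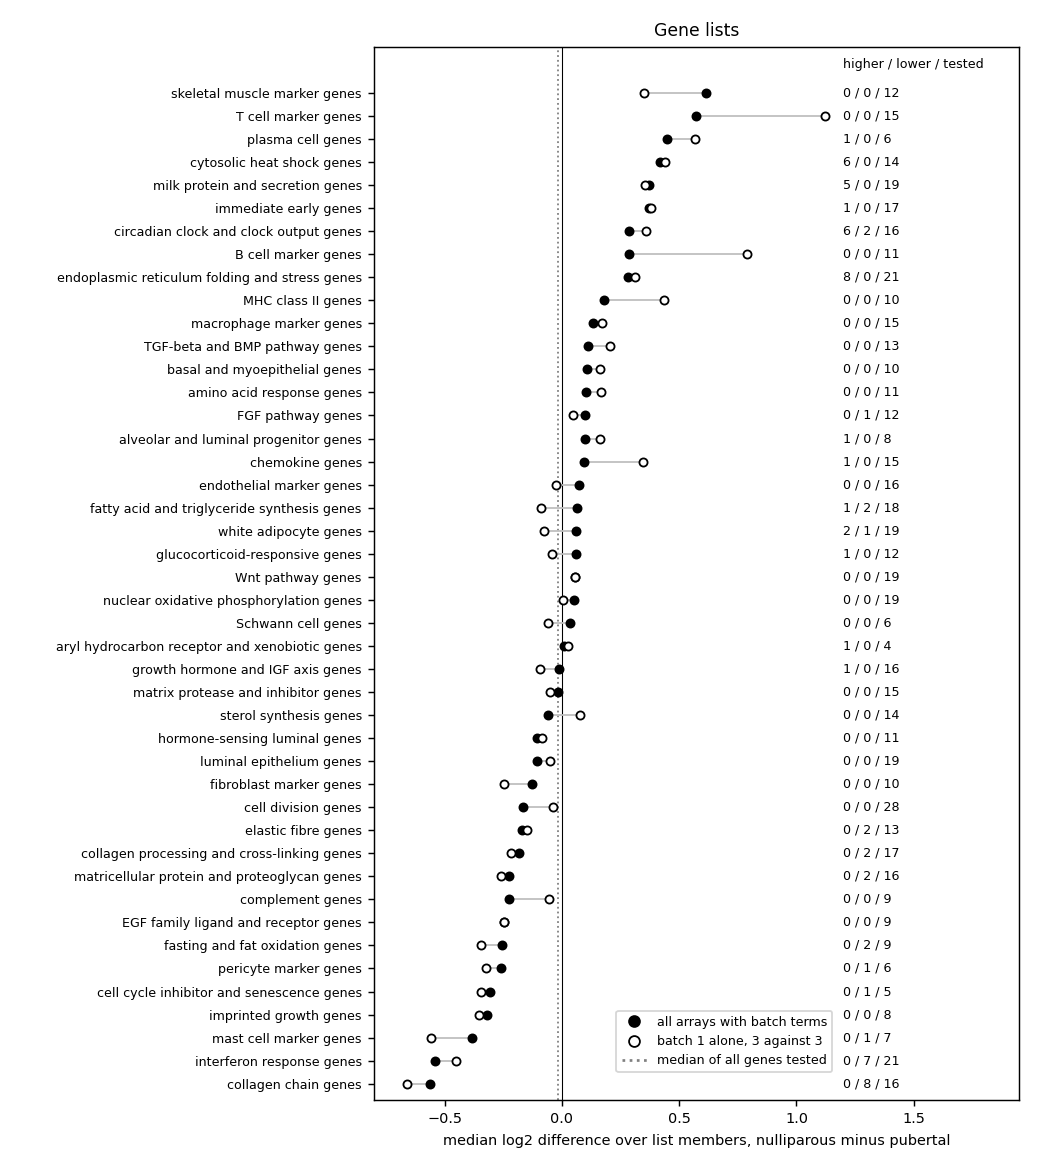
Median difference in log2 (horizontal axis, nulliparous minus pubertal) over the tested members of each list of at least 3 genes, with all arrays and batch terms (filled) and in batch 1 alone (open); figures at the right count the members called higher, called lower and tested. Collagen chains have the lowest median with all arrays (-0.56), interferon genes come next (-0.54), and T cell genes show the widest gap between the fits (0.57 and 1.12).

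Circadian clock genes moved in opposite directions. The clock is a feedback loop in which Bmal1, paired with Clock or Npas2, switches on the Per and Cry genes, whose products then repress that pair. Of 16 clock and clock output genes tested, 6 rose, 2 fell and 8 did not pass, where 1.88% of all genes rose and 2.39% fell. In batch 1, 8 lay higher and 3 lower without overlap, against 13.1% and 14.2% of all genes, so that the share lower was near that of all genes. Batch 1 alone called 1 higher and 2 lower, where 0.109% and 0.155% of all genes were. Per2 stood at 8.06, 8.13 and 8.52 in pubertal and 10.31, 10.0 and 9.97 in nulliparous arrays of batch 1, and rose 3.78-fold (1.92 ± 0.15, adjusted p = 5.92e-09; batch 1 alone 1.86 ± 0.15, adjusted p = 0.0171). The batch 3 arrays did not show this level in the deposited values, in which batch and kit cannot be told apart. Nulliparous arrays of batch 3 were at 7.90 and 7.76, near the pubertal arrays of batch 2 (7.56 and 7.75), and the parous arrays of batch 3 averaged 7.75, against 9.95 for those of batch 1.

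Npas2 and Bmal1, activators of the loop, fell. Npas2 was at 10.85, 10.86 and 10.19 in pubertal and 8.69, 8.67 and 8.20 in nulliparous arrays of batch 1, with 10.19 and 10.33 in batch 2 and 8.03 and 8.0 in batch 3, and no array of 1 group reached the other. It fell 3.99-fold (-2.0 ± 0.18, adjusted p = 3.61e-08; batch 1 alone -2.11 ± 0.22, adjusted p = 0.0393). Bmal1 was at 9.44, 9.16 and 8.81 in pubertal and 7.62, 7.74 and 7.70 in nulliparous arrays of batch 1, with 8.97 and 9.04 in batch 2 and 7.88 and 8.23 in batch 3, again without overlap, and fell by 1.32 ± 0.19 (adjusted p = 1.82e-04; batch 1 alone -1.45 ± 0.16, adjusted p = 0.0393). Clock, the partner of Bmal1, did not pass (-0.06 ± 0.10, adjusted p = 0.846).

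Several repressors and output genes rose. Cry1, a repressor, was at 7.24, 7.23 and 6.92 in pubertal and 8.23, 7.95 and 8.17 in nulliparous arrays of batch 1 and rose by 1.01 ± 0.15 (adjusted p = 1.61e-04 and 0.0568 in batch 1 alone). The output transcription factors Tef and Dbp, which share a DNA site, rose by 0.99 ± 0.16 (adjusted p = 5.11e-04 and 0.0732 in batch 1 alone) and 0.93 ± 0.20 (adjusted p = 0.00771 and 0.0766 in batch 1 alone). In the deposited values the nulliparous arrays of batch 3 were at 9.90 and 9.82 for Dbp, against 9.48 to 10.56 in pubertal arrays, and at 7.88 and 7.99 for Tef, against 7.58 to 8.55. Per3 rose by 0.75 ± 0.19 (adjusted p = 0.0186 and 0.0817 in batch 1 alone; lost without nulliparous array 1 or 2 or pubertal array 1 or 2, up to 0.066). Its batch 3 nulliparous arrays, at 8.65 and 8.25, were below every pubertal array (8.82 to 9.46). Per1, another repressor, was at 0.72 ± 0.24 (adjusted p = 0.0879) and did not pass, although its batch 1 arrays did not overlap (8.82, 8.63 and 8.63 against 9.25, 9.28 and 9.12). Nr1d1, which represses Bmal1, did not pass (-0.40 ± 0.24, adjusted p = 0.4), and its batch 1 arrays overlapped (10.30, 10.57 and 10.59 against 10.19, 10.66 and 10.25).

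The promoters of 3 of these genes are shown because each holds a known clock motif. The sequences are RefSeq's for the GRCr8 assembly, the 250 bases before the gene's start, 5′ to 3′ on the gene's strand, with the motif in capitals. Motifs were searched on both strands from 250 bases before to 50 after the start, over all starts listed for a gene. The E-box CACGTG, read by Bmal1 with its partners, stood 198 bases before the start of Tef. The D-box TTATGNAA, read by Dbp and Tef, stood 192 bases before that of Per2. The core AGGTCA of the site read by ROR and Rev-erb receptors stood 15 bases before that of Bmal1.
Tef, chr7:115206577-115206826, plus strand: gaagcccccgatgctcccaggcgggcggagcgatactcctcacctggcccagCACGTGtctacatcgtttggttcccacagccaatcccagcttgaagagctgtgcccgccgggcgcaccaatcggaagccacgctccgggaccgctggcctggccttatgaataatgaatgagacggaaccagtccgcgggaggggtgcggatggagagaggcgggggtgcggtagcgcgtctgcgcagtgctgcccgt
Per2, chr9:99496994-99497243, minus strand: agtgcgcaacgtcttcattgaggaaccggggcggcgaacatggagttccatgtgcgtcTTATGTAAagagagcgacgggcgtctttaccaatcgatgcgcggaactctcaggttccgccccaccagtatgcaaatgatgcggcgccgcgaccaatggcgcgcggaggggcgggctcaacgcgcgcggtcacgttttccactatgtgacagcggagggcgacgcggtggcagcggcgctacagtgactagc
Bmal1, chr1:176766078-176766327, plus strand: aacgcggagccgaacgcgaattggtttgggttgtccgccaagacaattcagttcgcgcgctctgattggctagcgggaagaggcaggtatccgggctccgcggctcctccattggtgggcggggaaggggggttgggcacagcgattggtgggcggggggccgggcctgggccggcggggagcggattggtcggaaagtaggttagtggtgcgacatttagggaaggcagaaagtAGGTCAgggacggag
Of 14 clock genes with a promoter in the table, 4 held the E-box, 1 the D-box and 1 the ROR core, against 7.08%, 3.86% and 16.9% of 27457 genes. Of the 6 called genes among them, 1 held each motif. A match describes letters only and not a site that was measured.

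**Figure D4:**
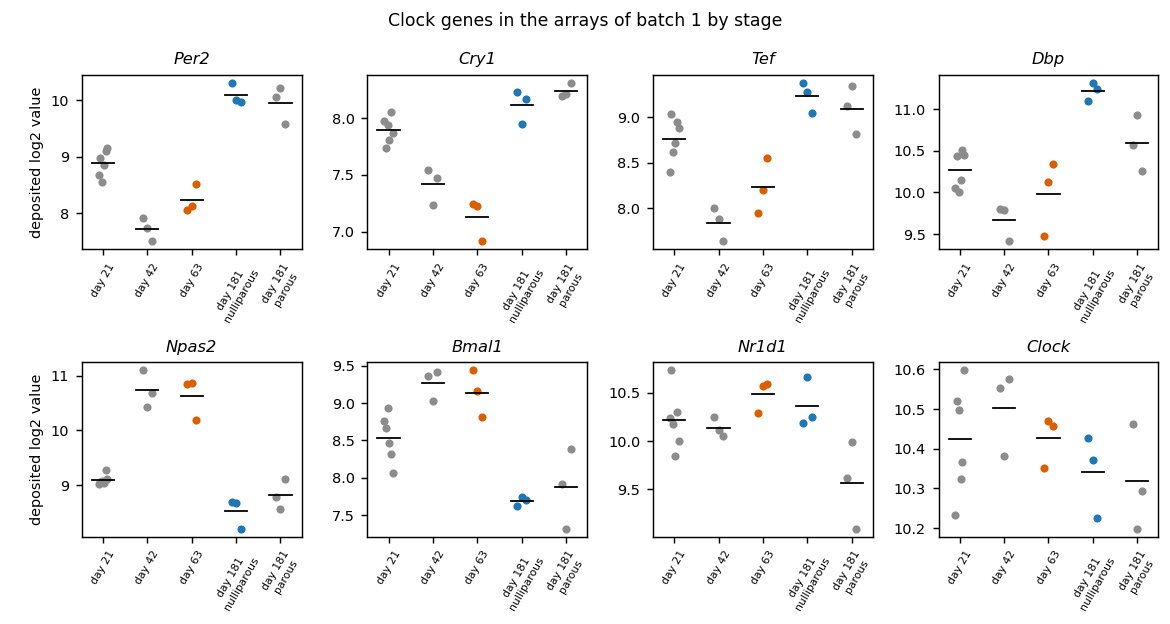
Deposited log2 values (vertical axes, which differ between panels) of 8 clock genes in the 18 arrays of batch 1 by stage; points are arrays and bars are means. Day 181 nulliparous arrays stand above day 63 arrays at Per2, Cry1, Tef and Dbp and below them at Npas2 and Bmal1, while Nr1d1 and Clock overlap.

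The clock genes were not at a fixed level before adulthood. Within batch 1, Per2 averaged 8.89 ± 0.24 at day 21 (SD, n = 6), 7.72 ± 0.20 at day 42 (n = 3), 8.24 ± 0.25 at day 63 (n = 3), 10.09 ± 0.19 in nulliparous (n = 3) and 9.95 ± 0.32 in parous adults (n = 3). Npas2 averaged 9.10 ± 0.09, 10.73 ± 0.34, 10.63 ± 0.38, 8.52 ± 0.28 and 8.82 ± 0.28 in the same order. Day 21 glands thus lay between the pubertal and adult levels for both genes. Each stage has a single collection day, so a difference in the hour of collection cannot be told apart from age here. Of 12 glucocorticoid-responsive genes, 1 rose, where 1.88% of all genes did. It was Tsc22d3, a leucine zipper protein induced by the hormone (0.83 ± 0.17, adjusted p = 0.00538 and 0.072 in batch 1 alone), while Fkbp5 did not pass (0.29 ± 0.21, adjusted p = 0.532).

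Several chaperone genes rose in adult virgin glands. Cytosolic chaperones fold proteins in the cell body and are switched on together by heat shock factors. Of 14 cytosolic heat shock genes, 6 rose and 0 fell, where 1.88% of all genes rose. Batch 1 alone called 2 higher, where 0.109% of all genes were. All 14 differences were above 0, the median was 0.42, and 10 lay higher without overlap in batch 1, where 13.1% of all genes did. Hsph1, a partner of the Hsp70 chaperone, was at 8.68, 8.15 and 8.33 in pubertal and 9.75, 9.57 and 9.54 in nulliparous arrays of batch 1, with 8.42 and 8.67 in batch 2 and 10.21 and 9.95 in batch 3. The groups did not overlap, and Hsph1 rose 2.58-fold (1.37 ± 0.22, adjusted p = 3.87e-04; batch 1 alone 1.23 ± 0.15, adjusted p = 0.0428).

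The small chaperone Hspb1 was at 9.32, 9.09 and 9.08 in pubertal and 10.36, 10.23 and 9.45 in nulliparous arrays of batch 1 and rose by 1.12 ± 0.24 (adjusted p = 0.00704 and 0.137 in batch 1 alone). Stip1, which links the Hsp70 and Hsp90 chaperones, was at 10.46, 10.43 and 10.59 in pubertal and 11.12, 11.16 and 11.29 in nulliparous arrays of batch 1 and rose by 0.66 ± 0.15 (adjusted p = 0.0081; batch 1 alone 0.70 ± 0.08, adjusted p = 0.0428). Hspa4l, of the Hsp70 family, rose by 0.84 ± 0.21 (adjusted p = 0.0172 and 0.197 in batch 1 alone; lost without nulliparous array 1, at 0.0983). Chordc1, which binds Hsp90, rose by 0.53 ± 0.14 (adjusted p = 0.0224 and 0.0962 in batch 1 alone; lost without nulliparous array 3 or pubertal array 2, up to 0.0985), and Hspe1, a mitochondrial chaperonin on this list, by 0.44 ± 0.11 (adjusted p = 0.0194 and 0.0816 in batch 1 alone; lost without nulliparous array 3 or pubertal array 2 or 3, up to 0.0826). The constitutive Hspa8 (0.12 ± 0.06, adjusted p = 0.305) and Dnajb1 (0.39 ± 0.14, adjusted p = 0.121) did not pass. In the same limma model, day 63 was already below day 42 for Hsph1 (-0.85, adjusted p = 0.0224) and above it for Hspa4l (0.78, adjusted p = 0.0295). Hspb1, Stip1, Chordc1 and Hspe1 did not pass between those days, a comparison that shares the pubertal arrays. Without nulliparous arrays 3 and 5, 3 of the 14 were called, with a median of 0.44, and leaving out 1 array gave 4 to 6.

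Promoters of Hsph1 and Hspb1 are shown for the heat shock element, searched as GAANNTTC, which is the same on both strands. It stood 31 bases before the start of Hsph1, and 129 and 109 bases before that of Hspb1.
Hsph1, chr12:10427118-10427367, plus strand: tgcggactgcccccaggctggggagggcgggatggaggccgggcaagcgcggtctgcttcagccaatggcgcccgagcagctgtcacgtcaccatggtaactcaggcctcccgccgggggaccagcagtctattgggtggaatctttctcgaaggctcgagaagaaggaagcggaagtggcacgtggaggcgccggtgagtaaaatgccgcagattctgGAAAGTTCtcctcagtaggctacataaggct
Hspb1, chr12:26432302-26432551, minus strand: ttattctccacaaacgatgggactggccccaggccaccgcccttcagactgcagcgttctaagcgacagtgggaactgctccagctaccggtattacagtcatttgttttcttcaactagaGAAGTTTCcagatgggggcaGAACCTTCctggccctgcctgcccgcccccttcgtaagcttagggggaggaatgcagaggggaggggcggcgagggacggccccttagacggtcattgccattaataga
Of the 14 tested genes of this list, all with a promoter in the table, 11 held the element, against 9.09% of all genes, and so did 4 of the 6 that rose.

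In the endoplasmic reticulum, where secreted and membrane proteins fold, 8 of 21 genes rose, 0 fell and 13 did not pass (median 0.28), where 1.88% of all genes rose. In batch 1, 12 lay higher without overlap, against 13.1% of all genes. In that batch alone 0 were called, where 0.109% of all genes were called higher. Herpud1, which helps clear misfolded proteins, was at 8.60, 8.70 and 8.57 in pubertal and 9.27, 9.36 and 9.11 in nulliparous arrays of batch 1, and rose by 0.59 ± 0.10 (adjusted p = 6.75e-04; batch 1 alone 0.62 ± 0.09, adjusted p = 0.0677). Sdf2l1, a chaperone cofactor, was at 7.68, 6.69 and 6.85 in pubertal and 7.86, 8.41 and 8.39 in nulliparous arrays of batch 1, and rose by 0.99 ± 0.21 (adjusted p = 0.00649 and 0.115 in batch 1 alone). The main chaperones Hspa5 (0.58 ± 0.14, adjusted p = 0.0146 and 0.14 in batch 1 alone; lost without pubertal array 2, at 0.0515) and Hsp90b1 (0.56 ± 0.12, adjusted p = 0.00863 and 0.102 in batch 1 alone) rose as well. Creld2, induced by folding stress, rose by 0.74 ± 0.19 (adjusted p = 0.0207 and 0.115 in batch 1 alone; lost without nulliparous array 2 or 3 or pubertal array 2 or 3, up to 0.111), and Manf, a secreted folding stress protein, by 0.49 ± 0.14 (adjusted p = 0.0366 and 0.121 in batch 1 alone; kept with 1 array left out only without nulliparous array 4 or 5 or pubertal array 1 or 5, otherwise up to 0.125). In the same limma model, day 63 was below day 42 for Hspa5 (-0.51, adjusted p = 0.0315) and Manf (-0.51, adjusted p = 0.0295). Herpud1, Sdf2l1, Hsp90b1 and Creld2 did not pass between those days. Xbp1, a transcription factor of the unfolded protein response, was at -0.04 ± 0.15 (adjusted p = 0.935), and of 11 amino acid response genes 0 passed, with their regulator Atf4 at -0.0 ± 0.09 (adjusted p = 0.999). Without nulliparous arrays 3 and 5, 3 of the 21 were called, with a median of 0.27, and leaving out 1 array gave 3 to 8.

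Herpud1's promoter is shown for CCACG, a part of the element read by unfolded protein response factors, which stood 194 and 118 bases before the start.
Herpud1, chr19:10614708-10614957, minus strand: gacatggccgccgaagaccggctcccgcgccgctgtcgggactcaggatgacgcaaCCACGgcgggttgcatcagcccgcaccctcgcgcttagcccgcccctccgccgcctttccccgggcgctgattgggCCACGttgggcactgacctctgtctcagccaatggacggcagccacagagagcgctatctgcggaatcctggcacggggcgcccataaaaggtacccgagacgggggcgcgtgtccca
Of 17 genes of the list with a promoter in the table, 15 held CCACG on either strand, and so did 7 of 7 that rose, against 34.1% of all genes. Such a short motif occurs in many promoters.

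Some interferon response genes fell in adult virgin glands. Type I interferon is sensed by a receptor that activates STAT proteins with Irf9, and these turn on antiviral genes. Of 21 genes tested, 7 fell, 0 rose and 14 did not pass, where 2.39% of all genes fell. The median was -0.54, and 13 lay lower without overlap in batch 1, where 14.2% of all genes did. In batch 1 alone 1 of the 21 was called lower, where 0.155% of all genes were. Rsad2, an antiviral enzyme, was at 7.69, 7.99 and 8.12 in pubertal and 6.82, 6.61 and 6.84 in nulliparous arrays of batch 1, with 7.07 and 8.52 in batch 2 and 5.83 and 6.10 in batch 3. No nulliparous array reached a pubertal one, and Rsad2 fell by 1.26 ± 0.23 (adjusted p = 0.00206; batch 1 alone -1.17 ± 0.14, adjusted p = 0.0433).

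Irf7, a regulator that amplifies the response, was at 9.65, 9.50 and 9.80 in pubertal and 8.94, 8.93 and 8.61 in nulliparous arrays of batch 1, and fell by 0.93 ± 0.24 (adjusted p = 0.0258 and 0.0677 in batch 1 alone; lost without nulliparous array 3 or pubertal array 3 or 5, up to 0.0828). Irf9, which joins the STAT proteins on DNA, fell by 0.49 ± 0.12 (adjusted p = 0.0203 and 0.0768 in batch 1 alone; lost without nulliparous array 2 or pubertal array 3, up to 0.0707). Isg15, a ubiquitin-like protein, was at 6.46, 6.37 and 6.77 in pubertal and 5.94, 5.57 and 5.74 in nulliparous arrays of batch 1 but at 8.39 in pubertal array 5, the array with the high interferon mean. It fell by 0.98 ± 0.28 (adjusted p = 0.0378 and 0.112 in batch 1 alone; lost without nulliparous array 2 or 3 or 4 or pubertal array 3 or 5, up to 0.108). The interferon-induced genes Ifi27 (-0.86 ± 0.25, adjusted p = 0.0447 and 0.0677 in batch 1 alone; kept with 1 array left out only without nulliparous array 4 or 5 or pubertal array 1 or 4, otherwise up to 0.156) and Ifi44 (-0.66 ± 0.18, adjusted p = 0.036 and 0.0768 in batch 1 alone; kept with 1 array left out only without nulliparous array 1 or 5 or pubertal array 1 or 4, otherwise up to 0.115) fell. Across the 10 fits that leave out 1 array, 1 to 9 of the 21 were called lower, and 1 without nulliparous arrays 3 and 5, with a median there of -0.60.

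The promoters of Rsad2 and Irf7 are shown for the interferon-stimulated response element, searched as GAAANNGAA on either strand. It stood 146 bases before the start of Rsad2 and 68 before that of Irf7, in both cases on the opposite strand.
Rsad2, chr6:48788121-48788370, minus strand: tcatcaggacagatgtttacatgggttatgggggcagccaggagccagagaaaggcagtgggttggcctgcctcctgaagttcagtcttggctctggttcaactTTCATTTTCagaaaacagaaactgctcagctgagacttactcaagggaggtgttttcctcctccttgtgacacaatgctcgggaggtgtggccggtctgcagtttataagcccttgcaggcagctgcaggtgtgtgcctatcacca
Irf7, chr1:205800024-205800273, minus strand: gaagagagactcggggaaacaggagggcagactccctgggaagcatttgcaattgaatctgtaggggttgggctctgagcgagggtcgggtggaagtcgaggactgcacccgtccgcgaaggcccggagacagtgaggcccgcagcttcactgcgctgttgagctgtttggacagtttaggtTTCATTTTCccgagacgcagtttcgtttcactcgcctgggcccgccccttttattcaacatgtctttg
Of 14 genes of the list with a promoter in the table, 9 held it, against 10.3% of all genes, and so did 4 of 5 that fell.

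Over the stages of batch 1, Irf7 averaged 8.0 ± 0.18 at day 21, 8.60 ± 0.47 at day 42, 9.65 ± 0.15 at day 63, 8.83 ± 0.19 in nulliparous and 8.49 ± 0.43 in parous adults. Matrix genes had another course. Lox averaged 10.86 ± 0.40, 11.16 ± 0.10, 10.70 ± 0.39, 8.63 ± 0.30 and 8.21 ± 0.29 in that order, from day 21 to parous adults, and Eln averaged 11.15 ± 0.24, 10.78 ± 0.20, 10.08 ± 0.23, 8.68 ± 0.30 and 8.61 ± 0.27. With batch terms, Lox at day 63 did not pass against day 21 (-0.18, adjusted p = 0.444), and Eln had fallen by then (by 1.09, adjusted p = 5.29e-08). These comparisons share the pubertal arrays with the main one.

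**Figure D5:**
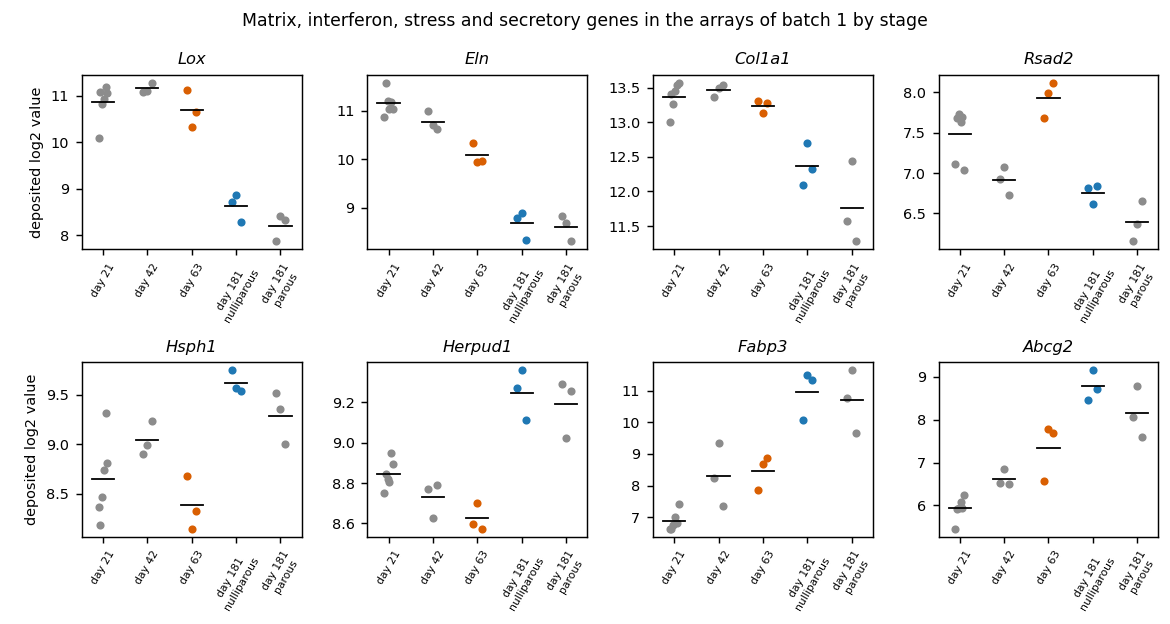
Deposited log2 values (vertical axes, which differ between panels) of 8 genes in the 18 arrays of batch 1 by stage; points are arrays and bars are means. Lox means are 10.86, 11.16 and 10.70 up to day 63 and 8.63 and 8.21 in the adult groups, the Rsad2 mean is highest at day 63, and Hsph1, Herpud1, Fabp3 and Abcg2 are higher in nulliparous adults than at day 63.

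Of 19 milk protein and secretion genes, 5 rose and 0 fell, where 1.88% of all genes rose, with 18 differences above 0 and a median of 0.37. In batch 1, 7 lay higher without overlap, against 13.1% of all genes. In that batch alone 1 was called higher, where 0.109% of all genes were. The 5 were not the major milk proteins. Besides Fabp3, they were Abcg2, a transporter that carries riboflavin into milk (6.57, 7.78 and 7.69 against 8.46, 9.15 and 8.72 in batch 1, 1.36 ± 0.26, adjusted p = 0.00247 and 0.114 in batch 1 alone), and Lpo, the milk enzyme lactoperoxidase (1.05 ± 0.19, adjusted p = 0.00164 and 0.165 in batch 1 alone). Pigr, the receptor that carries IgA into milk, was at 6.80, 6.85 and 6.83 in pubertal and 8.06, 8.35 and 8.12 in nulliparous arrays of batch 1 (1.35 ± 0.11, adjusted p = 0.0171), while pubertal array 5 of batch 2 was at 8.78. It rose by 1.02 ± 0.26 (adjusted p = 0.0224; lost without nulliparous array 2 or 3 or pubertal array 1 or 2 or 3, up to 0.0854). Muc1, a mucin of the milk fat globule membrane, rose by 0.85 ± 0.24 (adjusted p = 0.0349 and 0.0515 in batch 1 alone; lost without nulliparous array 2 or 3 or pubertal array 1 or 2 or 3, up to 0.127). Leaving out 1 array gave 3 to 5 calls on this list, where 99 to 193 of all genes were called higher. The mean of 19 luminal markers ran from 9.48 to 9.91 in pubertal and from 9.29 to 9.82 in nulliparous arrays, and its part in the result was not tested.

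Csn2, beta-casein, did not pass (0.54 ± 0.67, adjusted p = 0.753), and its arrays ran from 8.70 to 12.89 in pubertal and from 11.67 to 12.84 in nulliparous glands. The lowest Csn2 value was that of pubertal array 1, which also had the lowest cell division mean. Wap, whey acidic protein (0.37 ± 0.72, adjusted p = 0.85), Lalba, alpha-lactalbumin (0.09 ± 0.59, adjusted p = 0.956), and Csn3, kappa-casein (-0.12 ± 0.27, adjusted p = 0.866), did not pass. Of 8 alveolar and luminal progenitor genes, 1 rose, where 1.88% of all genes did. It was Stat5a, the transcription factor that carries the prolactin signal (0.70 ± 0.17, adjusted p = 0.0169 and 0.0681 in batch 1 alone; lost without nulliparous array 2 or pubertal array 3, up to 0.0797).

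Of 11 hormone-sensing luminal genes 0 were called, where 1.88% of all genes rose and 2.39% fell, and some differed widely within a group. Esr1, the estrogen receptor, was at 0.20 ± 0.19 (adjusted p = 0.666) and Prlr, the prolactin receptor, at -0.62 ± 0.28 (adjusted p = 0.233). Pgr, the progesterone receptor, was at 10.99, 8.46 and 8.09 in pubertal and 10.67, 10.37 and 7.70 in nulliparous arrays of batch 1 (0.53 ± 0.68, adjusted p = 0.762). Pubertal array 1 and nulliparous arrays 1 and 2 were high and the other 3 low, across both ages. Areg, a growth factor induced by estrogen, was highest in the same 3 arrays of batch 1 (8.91, 7.41 and 7.27 against 9.86, 9.43 and 7.44; 1.25 ± 0.54, adjusted p = 0.204). Outside batch 1 the groups stood in different batches, so these levels cannot be set against those of batch 1. Nulliparous arrays 4 and 5 were at 11.31 and 11.15 for Areg and at 8.72 and 8.31 for Pgr. Pubertal arrays 4 and 5 were at 7.30 and 7.61 for Areg and at 7.69 and 9.55 for Pgr. Animals were taken at random in the cycle, and the part of cycle stage in these values was not tested.

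Growth pathway genes were mostly not called, where 1.88% of all genes rose and 2.39% fell. Of 16 growth hormone and IGF axis genes, Pappa was the 1 that rose, and Igf1 itself was at 0.04 ± 0.15 (adjusted p = 0.912). In the FGF list, 1 of 12 fell, the receptor Fgfr2, which receives stromal signals for duct branching (-0.90 ± 0.22, adjusted p = 0.0147 and 0.083 in batch 1 alone; lost without nulliparous array 2 or 3, up to 0.0615). Of 13 TGF-beta, 19 Wnt, 9 EGF family and 8 imprinted growth genes, 0 passed. Among 5 cell cycle inhibitor and senescence genes, 1 fell, the lysosomal galactosidase Glb1 (-0.41 ± 0.11, adjusted p = 0.0336 and 0.1 in batch 1 alone; kept with 1 array left out only without nulliparous array 5 or pubertal array 1 or 5, otherwise up to 0.0985). Of 17 immediate early genes, 1 rose, Egr2, a zinc finger transcription factor (1.52 ± 0.44, adjusted p = 0.0445 and 0.16 in batch 1 alone; kept with 1 array left out only without nulliparous array 3 or pubertal array 1, otherwise up to 0.179), and Fos was at 0.23 ± 0.38 (adjusted p = 0.822).

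Lipid genes moved in both directions, where 1.88% of all genes rose and 2.39% fell. Scd, which desaturates fatty acids, was at 13.21, 12.94 and 13.16 in pubertal and 11.05, 10.52 and 9.33 in nulliparous arrays of batch 1, with 12.64 and 12.78 in batch 2 and 9.89 and 10.89 in batch 3. The groups were far apart, and the nulliparous arrays spread over more than 1 log2 unit. Scd fell 5.16-fold (-2.37 ± 0.55, adjusted p = 0.0113; batch 1 alone -2.80 ± 0.40, adjusted p = 0.0654), and the call was lost without nulliparous array 3 (adjusted p = 0.0709). In the list of 18 fatty acid and triglyceride synthesis genes, Elovl6, an elongase, also fell (-1.09 ± 0.32, adjusted p = 0.0438 and 0.0837 in batch 1 alone; kept with 1 array left out only without nulliparous array 3 or 5 or pubertal array 4 or 5, otherwise up to 0.168). Srebf1, the transcription factor that drives this pathway, rose (0.83 ± 0.20, adjusted p = 0.0153 and 0.117 in batch 1 alone; lost without nulliparous array 2 or pubertal array 3, up to 0.105), although its batch 3 nulliparous arrays (8.56 and 8.58) lay below every pubertal array (9.67 to 10.16). Acly did not pass (0.14 ± 0.18, adjusted p = 0.769). In batch 1, 7 of the 18 genes lay lower and 3 higher without overlap, against 14.2% and 13.1% of all genes. Of 14 sterol synthesis genes 0 passed.

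White adipocyte genes had a median difference of 0.06, with 2 of 19 up and 1 down, where 1.88% of all genes rose and 2.39% fell. Lep, the fat hormone leptin, rose by 1.40 ± 0.41 (adjusted p = 0.0469 and 0.16 in batch 1 alone; kept with 1 array left out only without nulliparous array 3 or pubertal array 1 or 5, otherwise up to 0.16), and Cidec, a lipid droplet protein, by 0.75 ± 0.21 (adjusted p = 0.0369 and 0.16 in batch 1 alone; kept with 1 array left out only without nulliparous array 3 or 4 or pubertal array 1 or 5, otherwise up to 0.109). Retn, the adipocyte hormone resistin, was at 9.53, 9.60 and 9.72 in pubertal and 7.55, 8.49 and 7.94 in nulliparous arrays of batch 1, and fell by 1.38 ± 0.28 (adjusted p = 0.00419 and 0.0585 in batch 1 alone). Its nulliparous arrays of batch 3, the batch tied to fatty glands and another kit, were at 10.32 and 11.03, above every pubertal array. Of 9 fasting and fat oxidation genes, Hadha (-0.53 ± 0.10, adjusted p = 0.00186 and 0.0768 in batch 1 alone) and Cpt1a (-0.53 ± 0.15, adjusted p = 0.0447 and 0.247 in batch 1 alone; kept with 1 array left out only without nulliparous array 1 or 4 or 5 or pubertal array 1, otherwise up to 0.133), both of mitochondrial fatty acid oxidation, fell, and of 19 oxidative phosphorylation genes 0 passed.

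No T or B cell marker passed, and nulliparous array 3 had the highest mean of both lists among the 10 arrays. For the counts in this paragraph, 1.88% of all genes rose and 2.39% fell. The T cell list had 15 of 15 differences above 0, a median of 0.57 (1.12 in batch 1 alone) and 0 genes called, and its median was -0.02 without nulliparous arrays 3 and 5. In batch 1, 9 T cell and 1 B cell genes lay higher without overlap, where 13.1% of all genes did. The T cell mean was at 7.39, 7.04 and 7.01 in pubertal and 7.54, 7.54 and 9.64 in nulliparous arrays of batch 1. It was at 8.67 and 8.07 in the pubertal arrays of batch 2 and at 7.81 and 7.70 in the nulliparous arrays of batch 3. Cd3e, a chain of the T cell receptor complex, overlapped, at 7.72, 7.33 and 7.43 in pubertal and 7.64, 7.86 and 10.35 in nulliparous arrays of batch 1 (0.41 ± 0.68, adjusted p = 0.825). The B cell list had a median of 0.29 with 0 of 11 called, and -0.65 without those arrays, with its marker Ms4a1 at 6.18, 5.36 and 6.65 in pubertal and 5.83, 5.34 and 9.94 in nulliparous arrays of batch 1. Of 10 MHC class II and 9 complement genes 0 passed. Of 15 chemokine genes, 1 rose, the T cell attractant Ccl5 (0.85 ± 0.25, adjusted p = 0.0445 and 0.0768 in batch 1 alone; kept with 1 array left out only without nulliparous array 5 or pubertal array 1 or 5, otherwise up to 0.171), and of 6 plasma cell genes, 1 rose, Derl3, which clears misfolded proteins and is also on the reticulum list (0.76 ± 0.21, adjusted p = 0.0383 and 0.0941 in batch 1 alone; kept with 1 array left out only without nulliparous array 1 or 4 or 5 or pubertal array 5, otherwise up to 0.184). Mast cell genes had 7 of 7 differences below 0, and 1 of them, the histamine-forming enzyme Hdc, below the floor in all 10 arrays, fell (-0.53 ± 0.15, adjusted p = 0.0383 and 0.114 in batch 1 alone; kept with 1 array left out only without nulliparous array 4 or 5, otherwise up to 0.142). In batch 1, 4 of these 7 lay lower without overlap, where 14.2% of all genes did. The 12 muscle genes were all above 0 in difference with 0 called, and Ckm was at 11.15 in nulliparous array 5 and 8.70 in array 1, against 6.68 to 6.99 in pubertal arrays. Of 4 xenobiotic genes, 1 rose, the aldehyde dehydrogenase Aldh3a1 (0.55 ± 0.14, adjusted p = 0.02 and 0.136 in batch 1 alone; lost without nulliparous array 1 or 2 or pubertal array 3, up to 0.1).

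The parous adults were killed at the same age as the nulliparous ones. Parous minus pubertal differences, which use the same pubertal arrays, were -2.47 ± 0.23 for Lox, -1.45 ± 0.16 for Eln, -1.86 ± 0.18 for Npas2, 1.80 ± 0.15 for Per2 and 2.40 ± 0.39 for Fabp3. Scd differed by -1.28 ± 0.55 there and did not pass (adjusted p = 0.168). None of these 6 genes passed between parous and nulliparous glands, where the adjusted p-values ran from 0.789 to 0.934.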

How the data were processed

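Total RNA of 33 rat mammary glands was hybridised to Affymetrix whole-transcript arrays, per the labels' protocols. The authors deposited log2 expression values of 36685 probe sets, for which the submitters' processing notes name RMA and the program Affymetrix Expression Console. Probe sets with 1 gene symbol were kept (18511), with 1 probe set per symbol, that of the highest mean. Genes above a log2 value of 7.645, the median of those probe sets, in at least 3 arrays were tested (10986). A limma 3.58.1 model (R 4.3.3) of stage and batch over all 33 arrays, with eBayes and an intensity trend, gave two-sided Benjamini-Hochberg adjusted p-values. The same test was run on batch 1 alone, 3 against 3, and both fits were tested on simulated data. There, log2 differences of 0.5 were recovered at 56.7% of changed genes with all arrays and at 8.96% in batch 1 alone. Differences of 1.0 were recovered at 91.0% and 65.7%. Of the calls, 6.86% were false with all arrays and 4.39% in batch 1 alone. RMA adjusts all arrays to a common distribution, so a change shared by most genes would not be seen. The labels do not say more of how animals map to arrays, and if arrays shared material the p-values would measure technical spread.

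Genes were named where they were among the 15 largest rises or 15 largest falls called without overlap in batch 1, starred members of 46 lists, or up to 6 called members of smallest adjusted p per list. Members and lists were chosen with earlier results of these data known, so their counts are descriptions beside the share of all genes. Promoters are from RefSeq's GRCr8 table.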

Additional observations from a re-analysis of the deposited data

Results flagged for a closer look

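Of 314 groups of 5 arrays examined for genes named in the text and for means of gene lists, 18 held 1 array far from the other 4 by Dixon's criterion. Chance would give this in about 5% of groups, so the number flagged is near that given by chance. The values were as deposited, without batch terms, and each group spans batches. Nulliparous array 3 stood high on the list means of T cell markers (9.64 against 7.54 to 7.81), B cell markers (10.0 against 6.77 to 6.95) and MHC class II genes (10.05 against 9.20 to 9.38). It was also high on Cd3e (10.35 against 7.64 to 8.01) and Derl3 (8.82 against 8.12 to 8.30). Nulliparous array 5 was high on skeletal muscle markers (10.13 against 6.72 to 7.64). Nulliparous array 1 was low on Fabp3 (10.07 against 11.34 to 11.72) and high on Hspa4l (8.88 against 7.81 to 8.02).

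Pubertal array 5 was high on the means of interferon response genes (9.30 against 8.49 to 8.71) and sterol synthesis genes (8.44 against 8.25 to 8.30), on Isg15 (8.39 against 6.37 to 6.77) and on Pigr (8.78 against 6.80 to 6.87). Pubertal array 1 was high on the mean of immediate early genes (9.05 against 8.59 to 8.71), on Areg (8.91 against 7.27 to 7.61) and on Cpz (9.92 against 8.88 to 9.18). The same array was low on Tll1 (9.20 against 10.10 to 10.26) and Csn3 (13.12 against 13.41 to 13.52). Pubertal array 4 was low on Cidec (10.08 against 10.61 to 10.81). The part of these arrays in the results was not tested beyond the fits that leave them out.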

How the results depend on the processing

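No named gene that was called with all arrays or under an alternative changed sign there. Of 2697 values of 113 named genes under the alternatives, 2276 stayed on the same side of the threshold, 409 were no longer past it and 12 newly passed. Among the 2276, 61 values of 18 genes called in neither fit changed sign. The counts of 206 higher and 263 lower genes became 854 and 1139 with array weights, 74 and 74 at an adjusted p under 0.01, and 40 and 29 when a fold of at least 2 was also asked. They became 124 and 65 without nulliparous arrays 3 and 5, 12 and 17 in batch 1 alone, and 127 and 123 in batch 1 with all its stages. A fit of only the 10 arrays gave 171 lower genes. Leaving out 1 array gave 99 to 193 higher and 102 to 245 lower genes. Quantile normalization, centring, the filters, the mean of probe sets, no trend, no batch term, a random batch block and no batch 3 arrays each kept both counts within 1.5 times. In batch 1 alone, the 12 higher genes became 127 and the 17 lower genes 123 with all its stages, and the lower genes 10 with no filter and 10 with no trend. Leaving out 1 array there gave 0 to 61 higher and 0 to 38 lower genes. In limma, 0 genes were called in either direction without pubertal array 2 (1601 at an unadjusted p under 0.05) or pubertal array 3 (1182), and 0 higher and 1 lower without nulliparous array 2 (1606). With 3 arrays against 3 and 4 residual degrees of freedom, that fit is the least precise. The cause of these shifts was not tested. No paired analysis was possible because the labels give no replicate numbers shared by the groups.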
